A study of Mus musculus with 30 samples.

Results

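The 7 genes described here, H2-K1, H2-D1, B2m, Tap1, Tap2, Tapbp and Erap1, make the core of the MHC class I antigen presentation pathway. They were chosen by name, with earlier results of these data known but with no rule on their values, from the 54232 genes of the count table, and all 7 were among the 20139 genes tested. MHC class I molecules carry short peptides from proteins made inside a cell to its surface, where CD8 T cells read them. The peptides are cut by the proteasome, moved into the endoplasmic reticulum by the TAP transporter, trimmed there by ERAP1 and loaded with the help of tapasin onto a complex of a heavy chain and β2-microglobulin. Nearly all nucleated cells, adipocytes included, express class I genes, and interferons are known to raise them.

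RNA was sequenced from 3T3-L1 cells, a mouse preadipocyte line that stores fat after hormonal induction, to ask how a uremic toxin and an oxidized lipoprotein alter adipocytes and whether pNaKtide, a peptide that blocks the signal passed from the Na/K-ATPase to the kinase Src, modifies this. There were 6 groups of 5 libraries. All cells were first held for 5 days in adipogenic medium. The Control group received no further agent, and the others received pNaKtide at 0.7 µM, IS (indoxyl sulfate, a uremic toxin) at 100 µM, IS + pNaKtide, oxLDL (oxidized low density lipoprotein) at 50 µg/mL, or oxLDL + pNaKtide, each at the same doses. The labels give 5 days of treatment, whereas the methods of the study describe dosing every 24 h for 2 days. The extraction text of the labels names adipose tissue, although the samples are labelled as 3T3 cells. Nothing in the labels says that the 5 libraries of a group came from separate cultures, so p-values measure the spread between these libraries.

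The libraries held between 6945498 and 15159877 counted reads, with a median of 11524210. All 8 adipocyte markers were tested, and their summed level ranged from 7909 to 13822 CPM, the count scaled to the size of a library, over the 30 libraries. The 10 leukocyte markers summed to between 4.27 and 8.47 CPM, with Ptprc, Itgam, Tyrobp and Cd3e at 0 in every library. On the first principal component, which held 64.4% of the variance, 3 of the 30 libraries scored on the other side of 0 from the rest of their group. Control replicate 1 scored -25.8 against 6.47 to 29.9 in the other Control libraries, and IS replicate 4 scored 28.2 against -36.7 to -23.2 in the other IS libraries. The third, pNaKtide replicate 3, scored -5.36 against 15.9 to 36.6. The first 2, Control replicate 1 and IS replicate 4, are called below the libraries that stood apart, and fits without both of them keep pNaKtide replicate 3. They were picked from these same data for scoring away from their groups, so more calls without them are no independent support. Calls of the 7 genes and counts of the lists that rest on them are given with and without them. A further library, oxLDL + pNaKtide replicate 4, had the fewest reads and scored 67.5 against 14.5 to 33.2 in the rest of its group, and calls that changed without it are named. The slope of counts over the GC content of genes also moved with the groups, from -3.65 to -1.14 in the oxLDL libraries and from 0.596 to 5.71 in the oxLDL + pNaKtide libraries. The libraries on the other side of 0 on the first component were apart from their groups in this slope too. Control replicate 1 was at -1.47, within the oxLDL range, against 0.0921 to 3.08 in the other Control libraries. IS replicate 4 was at 2.43 against -3.15 to -1.67, and pNaKtide replicate 3 at -1.35 against 1.93 to 2.45. The part of this slope in the results was not tested, and values with the trend of every library over gene GC content and transcript length taken out are given beside each call between 2 groups that they changed.

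Among the 7 genes, H2-K1 and H2-D1 encode the classical heavy chains that bind the peptide, and B2m encodes their invariant light chain. On GRCm38 H2-K1 lies at chr17:33996017-34000347 on the minus strand and H2-D1 at chr17:35262730-35267499 on the plus strand, both within the H2 complex. Tapbp (chr17:33915899-33929292), Tap1 (chr17:34187553-34197225) and Tap2 (chr17:34203527-34216321) lie in the same complex on the plus strand. B2m lies at chr2:122147686-122153083 and Erap1 at chr13:74639568-74693201, both on the plus strand. The line derives from Swiss mouse embryos and not from the reference strain, and the H2 heavy chains are polymorphic and have near-identical copies, so the counts of H2-K1 and H2-D1 are uncertain where reads could be split between copies.

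The stretches of promoter below are shown because class I genes and B2m are known to share control elements, here an interferon-type motif and the CCAAT box that NF-Y binds. The sequences come from RefSeq on GRCm38.p6, in which 6 of the 7 genes matched a promoter window of 300 bases and Tap2 did not. Capitals mark matches on either strand to GAAANNGAA or GAANNGAAA, and to CCAAT, which reads ATTGG on the other strand.
H2-K1 chr17:34000348-34000597 (minus strand): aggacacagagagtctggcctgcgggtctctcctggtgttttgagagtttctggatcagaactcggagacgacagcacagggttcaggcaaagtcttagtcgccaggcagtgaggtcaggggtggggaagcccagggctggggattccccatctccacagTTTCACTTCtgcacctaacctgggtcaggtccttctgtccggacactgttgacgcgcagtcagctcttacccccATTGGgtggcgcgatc
B2m chr2:122147437-122147685 (plus strand): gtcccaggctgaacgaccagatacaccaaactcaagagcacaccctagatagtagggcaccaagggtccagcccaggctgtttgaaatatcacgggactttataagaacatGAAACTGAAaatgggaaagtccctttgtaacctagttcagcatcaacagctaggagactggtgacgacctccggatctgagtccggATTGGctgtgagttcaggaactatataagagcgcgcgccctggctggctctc
H2-D1 chr17:35263017-35263046 (plus strand): cATTGGgtggcgagattccaggagCCAATc

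The RefSeq starts from which these windows were cut are not the gene starts given above for every gene, and for H2-D1 the window lies downstream of the latter. Counted from the RefSeq start, the interferon-type match of H2-K1 lay at -90 to -82, that of H2-D1 at -150 to -142 and that of B2m at -139 to -131. From another RefSeq start of H2-K1 the same match lay at -104 to -96, and a CCAAT beyond the stretch shown lay at -6 to -2. GAAANNGAA was found in 8.56% of all 32851 promoter windows and in 2 of the 6 matched here, B2m and Erap1. GAANNGAAA, a spelling added after the sequences had been seen, was found in 7.52% of windows and in H2-K1 and H2-D1. CCAAT was found in 37.4% of windows and in 5 of the 6, Erap1 being without it, and TGACGTCA, the cAMP response element, in 1.79% of windows and in none of the 6. These matches describe letters only and say nothing of factor binding.

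The levels of the 7 genes spanned a wide range. By the deposited FPKM values, which divide by gene length, the median over the 30 libraries was 859 for B2m, 178 for H2-D1, 55.2 for H2-K1, 52.8 for Tapbp, 5.52 for Tap2, 4.28 for Tap1 and 3.65 for Erap1. The light chain was thus the most abundant transcript and the transporter and peptidase genes the least. B2m exceeded H2-D1 and H2-D1 exceeded H2-K1 in 30 of 30 libraries, whereas H2-K1 and Tapbp, next to each other in this order, kept it in 18. Tap2 exceeded Tap1 in 29 libraries and Tap1 exceeded Erap1 in 22. CPM per kilobase gave the same order. Within a gene, the highest library exceeded the lowest by 1.48 times for H2-K1 and by 1.96 times for Tap1, the narrowest and widest ranges of the 7 in FPKM.

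**Figure D1:**
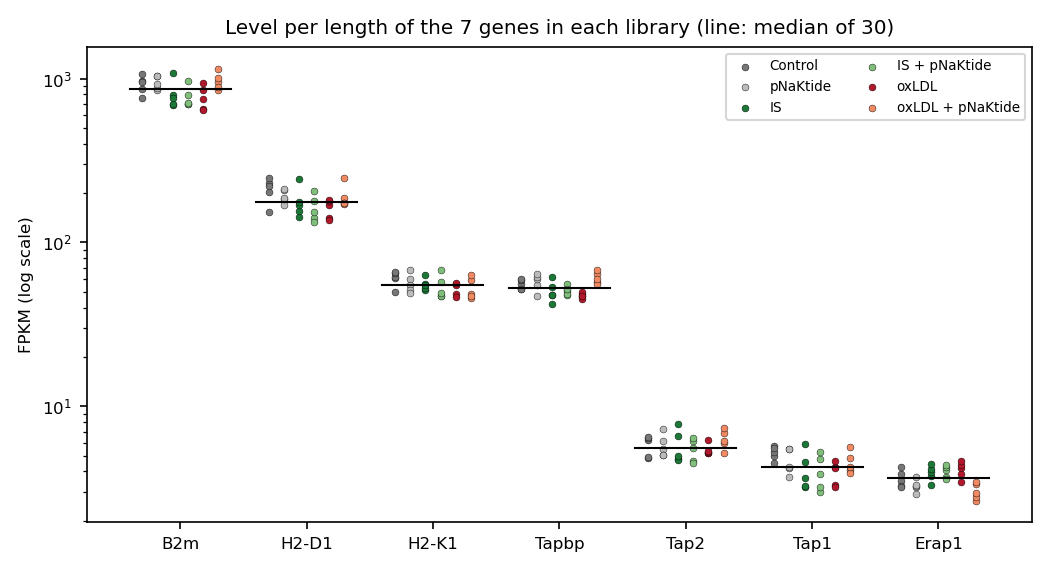
Deposited FPKM on a log axis for each of the 7 genes in the 30 libraries, coloured by group, with a line at the median of the 30. B2m lies above all the others, H2-K1 and Tapbp overlap, and Tap2, Tap1 and Erap1 lie lowest.

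The comparison of oxLDL with Control asks how the lipoprotein alters these genes. With TMM-scaled CPM as the level and edgeR's quasi-likelihood test at a Benjamini-Hochberg adjusted p under 0.1, 3 of the 7 fell with oxLDL, H2-D1, Tap1 and Tapbp, and none rose. Over all genes tested 36.0% were called, 18.1% higher and 18.0% lower, so that 3 of 7 is not far from the background. The median log2 change of the 7 was -0.22, against 0.04 for all genes tested. In bulk RNA, fewer cells that express a gene and less RNA per cell cannot be told apart.

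H2-D1 stood at 397, 598, 529, 645 and 579 CPM in Control replicates 1 to 5 and at 447, 367, 462, 479.8 and 361 CPM in the oxLDL replicates. Control replicate 1 lay within the oxLDL range, and the other Control libraries lay above all oxLDL libraries. The log2 change was -0.38 (SE 0.137, edgeR adjusted p = 0.0402, n = 5 per group). It was no longer called without Control replicate 4 (-0.31, edgeR adjusted p = 0.128), oxLDL replicate 2 (-0.33, 0.112) or oxLDL replicate 5 (-0.32, 0.114), and it was -0.12 with the GC and length trend taken out (edgeR adjusted p = 0.38).

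Tap1, a subunit of the peptide transporter, was at 24.9, 31.5, 27.8, 29.2 and 31.1 CPM in Control and at 23.6, 18.3, 23.2, 26.3 and 17.9 CPM with oxLDL. One oxLDL library exceeded the lowest Control library, and the rest lay below all Control libraries. The log2 change was -0.41 (SE 0.159, edgeR adjusted p = 0.0544), and it lost its call without any 1 of Control replicates 2 and 5 or oxLDL replicates 2 and 5, with adjusted p values of 0.123, 0.113, 0.145 and 0.148. With the trend taken out it was -0.21 (edgeR adjusted p = 0.260). Exons of Tap1 share 212 bases with Psmb9 on the opposite strand, and the strand setting of the counting is not given in the sources used here, although Psmb9 held only 13 to 52 counts per library against 180 to 422 for Tap1.

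Tapbp, which encodes tapasin, the bridge between TAP and the heavy chain, was at 174, 184, 173, 195 and 200.3 CPM in Control and at 159, 151, 160.3, 170.3 and 157 CPM with oxLDL. All 5 oxLDL libraries lay below all 5 Control libraries, a separation found for 8.35% of all genes tested. The log2 change was -0.22 (SE 0.0908, edgeR adjusted p = 0.0723). It lost its call in 6 of the 10 fits that left out 1 library, namely Control replicate 2, 4 or 5 (0.117, 0.155 and 0.169) and oxLDL replicate 1, 2 or 5 (0.114, 0.155 and 0.126, all edgeR adjusted p), and with the filter of at least 1 count over all libraries (edgeR adjusted p = 0.133). With the trend taken out it was 0.04 (edgeR adjusted p = 0.721), with the opposite sign.

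**Figure D2:**
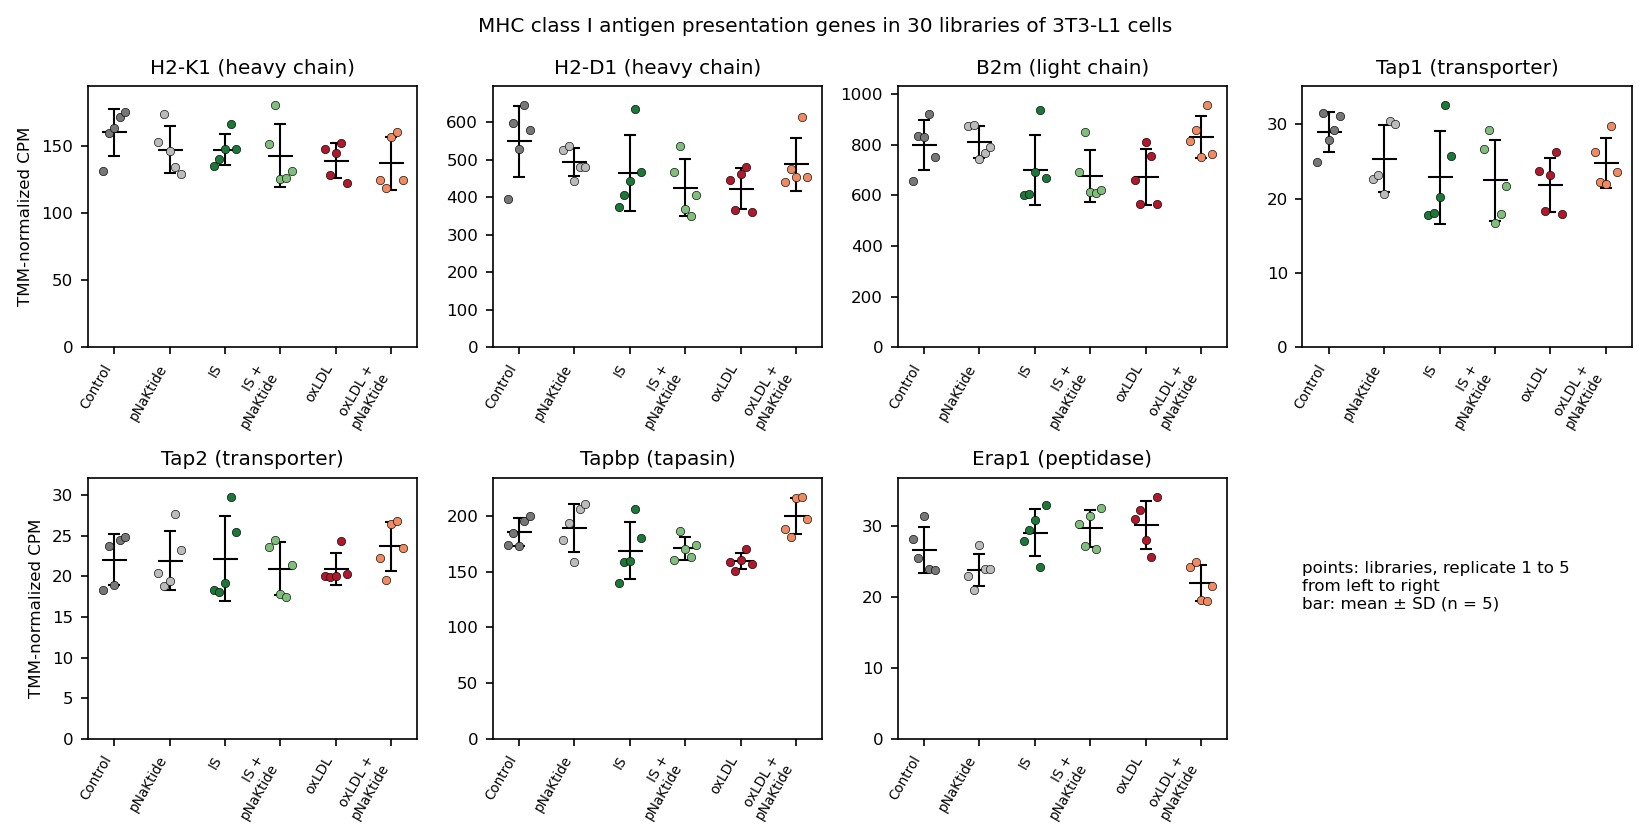
TMM-scaled CPM of each of the 7 genes in the 30 libraries, 1 panel per gene, with points for replicates 1 to 5 of each group from left to right and bars for the mean ± SD (n = 5). For Tapbp all oxLDL points lie below the Control points and below the oxLDL + pNaKtide points, and for Erap1 all oxLDL + pNaKtide points lie below the oxLDL points.

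The other 4 genes did not pass the test. H2-K1 ranged from 131 to 175 CPM in Control and from 122 to 152 CPM with oxLDL, with a log2 change of -0.20 (SE 0.108, edgeR adjusted p = 0.161). B2m ranged from 656 to 921 CPM in Control and from 565 to 812 CPM with oxLDL, with a log2 change of -0.25 (SE 0.124, edgeR adjusted p = 0.130). For H2-K1 only Control replicate 1, at 131 CPM, lay within the oxLDL range, and the other Control libraries lay above it. The B2m ranges overlapped from 656 to 812 CPM. Tap2, the partner of Tap1 in the transporter, changed by -0.08 (edgeR adjusted p = 0.726), and the 95% interval of its difference ran from -0.35 to 0.20. Erap1, which trims peptides in the endoplasmic reticulum, had the only positive value, 0.19 (SE 0.101, edgeR adjusted p = 0.174). With the trend taken out Erap1 was -0.34 (edgeR adjusted p = 0.0250), B2m was -0.54 (0.0413) and H2-K1 0.03. Single libraries left out brought calls for H2-K1 (without Control replicate 1), for B2m (without Control replicate 1 or oxLDL replicate 3 or 4) and for Erap1 (without Control replicate 3 or oxLDL replicate 4), with edgeR adjusted p values from 0.0462 to 0.0894.

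Leaving out both libraries that stood apart raised the count from 3 to 5 of 7, all lower, with log2 changes of -0.27 for H2-K1, -0.47 for H2-D1, -0.31 for B2m, -0.46 for Tap1 and -0.24 for Tapbp. The edgeR adjusted p values were 0.0359, 0.000931, 0.0170, 0.0126 and 0.0217, and 47.6% of all genes were called in that fit, against 36.0% with all libraries. As both libraries were picked by their scores in these data, a rise in calls could follow from the choice itself. Scaling by library size alone, in place of TMM, moved the median of all genes up by 0.13 and left only Erap1 called, at 0.31 (edgeR adjusted p = 0.0512), while H2-D1 was at -0.24, Tap1 at -0.28 and Tapbp at -0.09 (0.105, 0.160 and 0.424). The share of all calls that were higher was 50.1% with TMM and 68.6% with library size alone. Relative to the median of all genes, the median of the 7 was -0.26 under both scalings and -0.15 with the trend taken out.

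Adding pNaKtide to oxLDL asks whether the peptide alters the response. In this comparison 48.3% of all genes were called, 22.1% higher and 26.1% lower. Of the 7 genes, B2m and Tapbp rose and Erap1 fell. The median log2 change of the 7 was 0.18, against -0.09 for all genes tested. The oxLDL libraries serve both as the treated group above and as the reference here, so the values of both comparisons are given side by side and are not independent.

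Tapbp stood at 188, 181, 216, 217 and 197 CPM with oxLDL + pNaKtide, above all of the 151 to 170.3 CPM of the oxLDL libraries. Groups did not overlap for 28.4% of all genes tested. Its log2 change was 0.33 (SE 0.0910, edgeR adjusted p = 0.00434), beside -0.22 for oxLDL against Control. It remained called in 10 of 10 fits that left out 1 library, and with the trend taken out it was 0.04 (edgeR adjusted p = 0.644). Exons of Tapbp share 149 bases with Zbtb22 on the same strand, which held 237 to 538 counts per library against 1298 to 2957 for Tapbp.

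Erap1 stood at 31.0, 32.3, 28.0, 25.7 and 34.2 CPM with oxLDL and at 24.2, 25.0, 19.6, 19.5 and 21.6 CPM with oxLDL + pNaKtide. Every library with pNaKtide lay below every library without it. The log2 change was -0.46 (SE 0.103, edgeR adjusted p = 0.000657), and it remained called in 10 of 10 fits that left out 1 library. With the trend taken out it was 0.27 (edgeR adjusted p = 0.0387), of the opposite sign and still past the threshold. Erap1 has a GC content of 41.5% in its exons, against 54.3% to 57.1% for the 5 genes of the H2 complex. Exons of Erap1 share 834 bases with Cast, which lies on the opposite strand and held 543 to 1961 counts per library, more than the 118 to 542 of Erap1, so its counts are uncertain where strand was not used.

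B2m stood at 661, 566, 812, 754 and 565 CPM with oxLDL and at 816, 859, 750.3, 956 and 765 CPM with oxLDL + pNaKtide. The groups overlapped in the range from 750.3 to 812 CPM. The log2 change was 0.30 (SE 0.124, edgeR adjusted p = 0.0477), and it lost its call without oxLDL replicate 2, oxLDL replicate 5 or oxLDL + pNaKtide replicate 4 (edgeR adjusted p = 0.140, 0.140 and 0.113). Without the trend it was 0.58 (edgeR adjusted p = 0.0105). B2m has a GC content of 41.2% and a short transcript of 860 bases.

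The remaining 4 genes were not called, with log2 changes of 0.20 for H2-D1, 0.17 for Tap1, 0.18 for Tap2 and -0.02 for H2-K1. Once the trend was removed H2-K1 was called lower, at -0.30 (edgeR adjusted p = 0.00201), H2-D1 was at -0.10, Tap2 at -0.06 and Tap1 at 0.00. With TMM alone, the 95% interval for H2-K1 ran from -0.24 to 0.20. With library size alone, which moved the median of all genes by -0.22, B2m was at 0.08 and Tapbp at 0.10, neither called, H2-K1 at -0.24 (edgeR adjusted p = 0.0394) and Erap1 at -0.69 (6.74e-05). The share of all calls that were higher was 45.9% with TMM and 26.0% with library size alone. The median of the 7 was then -0.05, of the opposite sign, and relative to the median of all genes it was 0.26 under both scalings and 0.04 with the trend taken out.

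**Figure D3:**
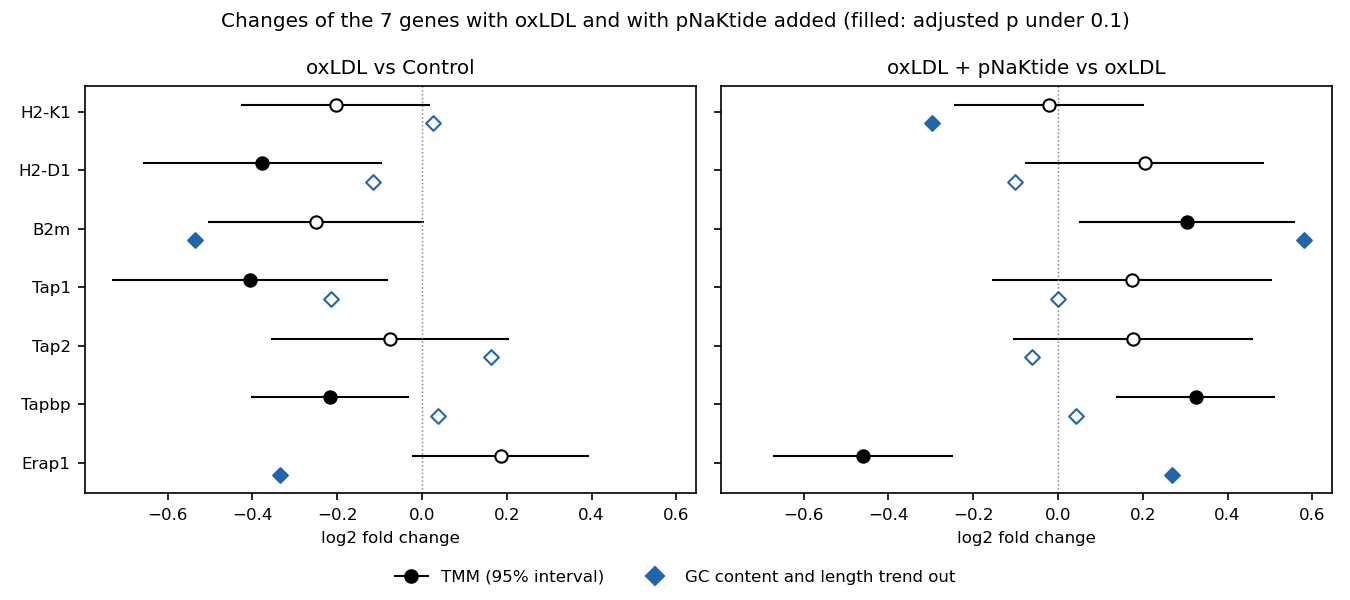
Log2 fold changes of the 7 genes for oxLDL against Control and for oxLDL + pNaKtide against oxLDL, as circles with 95% intervals for TMM scaling and as diamonds with the GC content and length trend taken out, filled where the edgeR adjusted p was under 0.1. Erap1 has opposite signs under the 2 settings in both comparisons, and the Tapbp diamond lies at 0.04 in both.

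**Figure D4:**
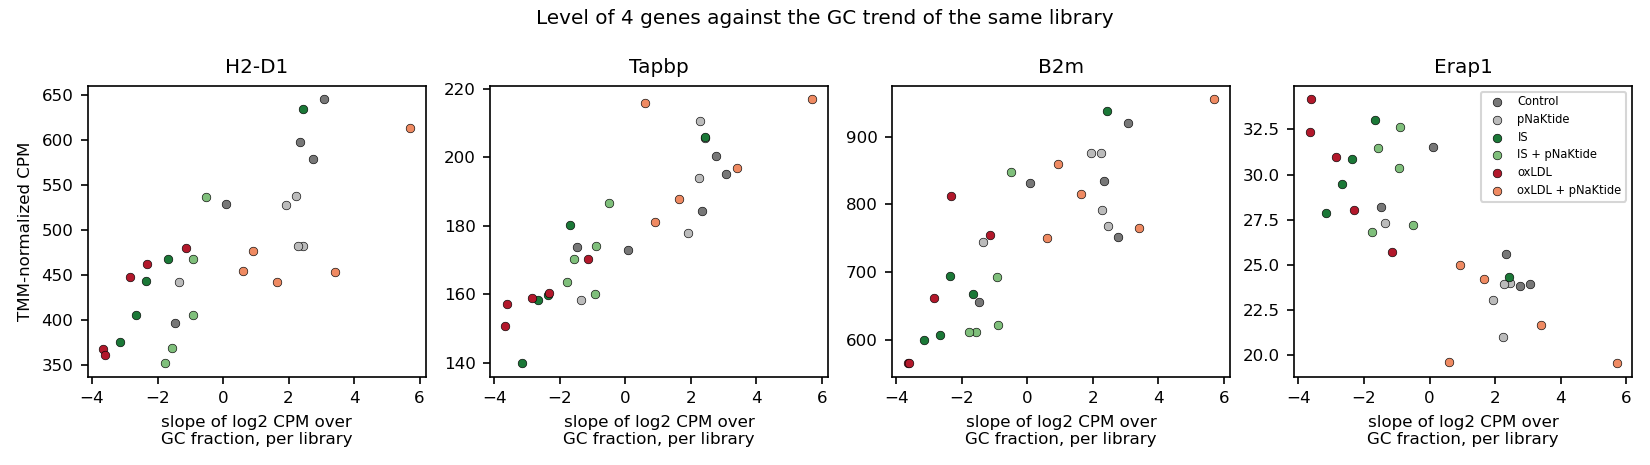
TMM-scaled CPM of H2-D1, Tapbp, B2m and Erap1 in the 30 libraries against the slope of log2 CPM over the GC fraction of genes in the same library, coloured by group. The oxLDL libraries lie at slopes from -3.65 to -1.14 and the oxLDL + pNaKtide libraries at 0.596 to 5.71, so the slope and these groups separate fully along the x axis.

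The difference between the 2 effects of pNaKtide, with and without oxLDL, was tested as an interaction, in which 24.6% of all genes were called, or 4951, and 2109 to 7504 with single libraries left out. The count was 7504 without Control replicate 1, 3150 and 2837 without Control replicate 2 or 4, 2109 without pNaKtide replicate 3 and 2525 without oxLDL + pNaKtide replicate 4. None of the 7 passed edgeR's test, with 2 at an unadjusted p under 0.05, while DESeq2 and limma each called 1. The values were 0.36 for H2-D1 (edgeR adjusted p = 0.201), 0.37 for Tap1 (0.268), 0.29 for Tapbp (0.109) and -0.30 for Erap1 (0.147). Once the trend was taken out they were 0.04 for H2-D1, 0.14 for Tap1, -0.02 for Tapbp and 0.33 for Erap1, of the opposite sign for the last 2, and none of the 7 was called. With both libraries that stood apart left out, 4 were called: H2-D1 at 0.45, B2m at 0.35, Tapbp at 0.32 and Erap1 at -0.33 (edgeR adjusted p = 0.0222, 0.0677, 0.0335 and 0.0770), while the calls over all genes rose from 4951 to 8049. Among fits that left out 1 library, H2-D1 was called without Control replicate 1, Tapbp in 8 of 20 and Erap1 in 3 of 20.

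IS against Control, which asks the same of the uremic toxin, called 7.94% of all genes and none of the 7 by edgeR, DESeq2 or limma, with 1 of the 7 at an unadjusted p under 0.05. Tap1 was at 17.8, 18.0, 20.2, 32.5 and 25.7 CPM in IS replicates 1 to 5, and the highest of these, replicate 4, is the library that stood apart. Its log2 change was -0.35 (edgeR adjusted p = 0.170), and those of the other 6 lay between -0.24 for H2-D1 and 0.13 for Erap1. With Control replicate 1 and IS replicate 4 left out, 5 of the 7 were called lower, H2-K1 at -0.23, H2-D1 at -0.48, B2m at -0.38, Tap1 at -0.55 and Tapbp at -0.24 (edgeR adjusted p = 0.0918, 0.00185, 0.00765, 0.00501 and 0.0327). In that fit 9140 of all genes were called, against 1599 with all libraries. Leaving out IS replicate 4 alone gave 4, H2-D1 at -0.38, B2m at -0.32, Tap1 at -0.50 and Tapbp at -0.22 (edgeR adjusted p = 0.0287, 0.0410, 0.0148 and 0.0635). Leaving out Control replicate 1 alone gave H2-D1 at -0.34 and Tap1 at -0.40 (0.0601 and 0.0759). These fits called 6952 and 6694 of all genes.

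Comparisons of pNaKtide with Control, in which 0.00497% of genes were called, and of IS + pNaKtide with IS, in which 0% were called, gave none of the 7 with edgeR, DESeq2 or limma, and none at an unadjusted p under 0.05. The log2 changes with pNaKtide alone ran from -0.19 for Tap1 to 0.03 for Tapbp. IS + pNaKtide against IS had 564 of all genes at an unadjusted p under 0.05, and the difference between the effects of pNaKtide with and without IS had 619, with 0% of genes and none of the 7 called. In oxLDL + pNaKtide against Control 5.20% of genes were called, and Erap1 was at -0.27 (edgeR adjusted p = 0.152) and H2-K1 at -0.23 (0.279), both under an unadjusted p of 0.05 and none of the 7 called by edgeR, DESeq2 or limma. Without the trend H2-K1 was called at -0.27 (edgeR adjusted p = 0.0219). In IS + pNaKtide against Control 0.358% were called and again none of the 7 by the same tools, with 2 under an unadjusted p of 0.05, H2-D1 at -0.37 (edgeR adjusted p = 0.179) and Tap1 at -0.37 (0.209). Without Control replicate 1 this last comparison called H2-D1, B2m and Tap1, at -0.46, -0.30 and -0.42 (edgeR adjusted p = 0.0229, 0.0884 and 0.0756), in a fit that called 5378 of all genes against 72 with all libraries.

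Across all 6 groups together 45.1% of genes were called, and of the 7 Erap1 (edgeR adjusted p = 0.00177) and Tapbp (0.0322) were, B2m being at 0.103. For Erap1 the order of group medians ran from 31.0 CPM with oxLDL to 21.6 CPM with oxLDL + pNaKtide, and for Tapbp from 197 CPM with oxLDL + pNaKtide to 159 CPM with oxLDL. Control was highest for H2-K1, H2-D1, B2m, Tap1 and Tap2. In each of the 7 genes the ranges of groups next to each other in this order overlapped.

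Proteasome subunits and the PA28 activator supply peptides to this pathway. The list held Psmb8, Psmb9 and Psmb10 of the immunoproteasome, the standard subunits Psmb5, Psmb6 and Psmb7, and Psme1, Psme2, Psme3 and Pomp. Of these 10 genes, 5 fell with oxLDL and none rose, and 5 rose and none fell when pNaKtide was added to it. The smallest adjusted p among those that fell was that of Psmb5, at -0.45 (edgeR adjusted p = 0.0176). Over all genes the shares were 18.0% lower, then 22.1% higher. Fits that left out 1 library gave 3 to 5 that fell with oxLDL, the lowest without Control replicate 4, and 5 that rose with pNaKtide added. The list's median was -0.28 and 0.46 in the 2 comparisons, against 0.04 and -0.09 for all genes. Psme1, a PA28 subunit, was at 68.8, 90.6, 87.9, 99.3 and 99.5 CPM in Control, at 60.9, 52.9, 75.3, 75.8 and 53.9 CPM with oxLDL and at 99.1, 91.5, 109, 144 and 115 CPM with oxLDL + pNaKtide. Only Control replicate 1 lay within the oxLDL range, and all libraries with pNaKtide lay above it. Its log2 changes were -0.49 (edgeR adjusted p = 0.0194) and 0.81 (0.000109), those of Psme2 were -0.33 and 0.70, and those of the immunoproteasome subunit Psmb10 were -0.51 and 0.71. Psmb9, another immunoproteasome subunit, was at -0.22 and -0.17 and did not pass the test in either. With the trend taken out 2 fell with oxLDL and 6 rose with pNaKtide added.

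Among 24 other class I heavy chain and class I-like genes, 8 fell with oxLDL and 2 rose, where the shares over all genes were 18.0% and 18.1%. H2-Q7 was at -0.50 (edgeR adjusted p = 0.0151), H2-T22 at -0.51 (0.0246) and Fcgrt, the receptor that recycles IgG with B2m as its light chain, at -0.65 (0.00730). With pNaKtide added, 2 of the 24 rose and 1 fell, against 22.1% and 26.1% of all genes. Fcgrt rose by 0.83 (edgeR adjusted p = 4.42e-05) and H2-T10 by 0.32, while H2-M3 was lower at -0.51. Among 18 loading and folding genes, 3 rose and 5 fell with oxLDL and 4 rose and 4 fell with pNaKtide added, against 18.1%, 18.0%, 22.1% and 26.1% of all genes. Calr, calreticulin, was at -0.38 and 0.44, and Canx, calnexin, at 0.31 and -0.65, all past the threshold (edgeR adjusted p = 0.0222, 0.00377, 0.0408 and 6.20e-05), but Canx was at -0.11 with oxLDL once the trend was taken out and no difference between these chaperones was tested. Of 10 other peptidases, 2 rose and 2 fell with oxLDL and 1 rose and 3 fell with pNaKtide added, and Tpp2 was at 0.42 and -0.61, with the opposite signs once the trend was taken out. With library size alone the counts of these 3 lists moved, to 3 higher and 5 lower and then 1 and 2 for the heavy chain list, 5 and 3 and then 3 and 11 for the loading list, and 5 and 1 and then 1 and 9 for the peptidases. Single libraries left out gave 0 to 3 higher and 5 to 9 lower with oxLDL for the heavy chain list (5 lower without Control replicate 4, oxLDL replicate 2 or oxLDL replicate 5), 1 to 3 and 4 to 6 for the loading list (1 higher without Control replicate 2 or 4) and 0 to 2 and 1 to 2 for the peptidases (0 higher without Control replicate 4). With pNaKtide added, 1 to 4 of the heavy chain list rose, 4 of them without oxLDL replicate 4 and 1 without oxLDL replicate 1, 2 or 5 or oxLDL + pNaKtide replicate 4.

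Of 44 interferon-stimulated genes tested, 11 rose and 1 fell with oxLDL, and 3 rose and 24 fell when pNaKtide was added, against 18.1% and 18.0% and then 22.1% and 26.1% of all genes, with medians of 0.34 and -0.74. Iigp1, an interferon-induced GTPase, was at 1.02 and -2.03 (edgeR adjusted p = 0.00683 and 3.63e-06). Its level was low, with means of 1.88 CPM in Control, 3.81 CPM with oxLDL and 0.947 CPM with oxLDL + pNaKtide. Leaving out single libraries gave 8 to 19 that rose with oxLDL (19 without Control replicate 1), 1 to 5 that fell with it (5 without that same library) and 16 to 26 that fell with pNaKtide added, and with the trend taken out 3 rose and 2 fell with oxLDL, and 3 rose and 14 fell with pNaKtide added. Of the 17 transactivators tested 3 rose and 3 fell with oxLDL and 3 rose and 10 fell with pNaKtide added, among them Nlrc5, the main transactivator of class I genes, at -0.40 (edgeR adjusted p = 0.0165). Nlrc5 was at 0.15 with oxLDL and did not pass the test. The 14 interferon receptor and JAK-STAT genes gave 3 that rose and 1 that fell, then 1 and 8, and 0 to 2 that fell with oxLDL with single libraries left out, 2 of them without Control replicate 1. Of 12 class II genes only 6 were expressed enough to test, of which 3 fell with oxLDL and 2 rose with pNaKtide added, and single libraries left out gave 1 to 3 in both (1 that fell without Control replicate 2 or 5 or oxLDL replicate 3, and 1 that rose without oxLDL replicate 2 or 3 or oxLDL + pNaKtide replicate 3 or 5). Without both libraries that stood apart the counts higher and lower with oxLDL were 3 and 8 for the heavy chain list, 3 and 6 for loading, 0 and 5 for the proteasome and PA28 list, 2 and 2 for peptidases, 3 and 3 for transactivators, 3 and 2 for JAK-STAT, 19 and 5 for interferon-stimulated genes and 0 and 4 for class II, in a fit that called 47.6% of all genes.

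**Figure D5:**
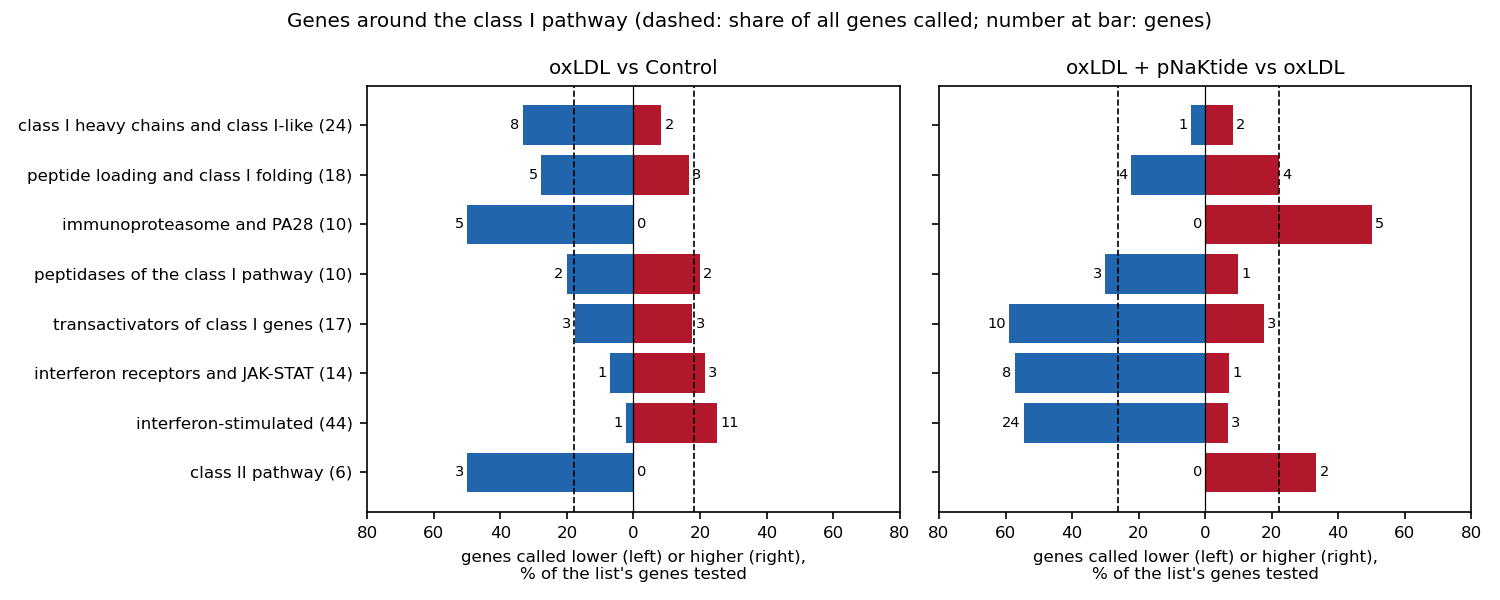
Genes called lower (left) and higher (right) by edgeR in each pathway list, as a percentage of the genes of the list tested, for oxLDL against Control and for oxLDL + pNaKtide against oxLDL, with the number of genes at each bar and dashed lines at the share of all genes called in that direction. The immunoproteasome and PA28 list, which also holds the standard subunits Psmb5, Psmb6 and Psmb7, has 5 of 10 lower and then 5 of 10 higher. The interferon-stimulated list has 11 of 44 higher and then 24 of 44 lower.

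The levels of cell type markers moved as well. With oxLDL 3 of 8 adipocyte markers fell, Cidec, Lipe and Cebpa, and 5 rose when pNaKtide was added, while of 8 preadipocyte or fibroblast markers 2 fell with oxLDL and 2 rose and 1 fell with pNaKtide added. These few genes stand against 18.0% lower and then 22.1% higher of all genes, and single libraries left out gave 1 to 5 adipocyte markers that fell with oxLDL (5 without Control replicate 1, 1 without Control replicate 5 or oxLDL replicate 1) and 0 to 2 preadipocyte or fibroblast markers (1 without Control replicate 2, 0 without Control replicate 4). Without both libraries that stood apart 5 and 3 fell, where 47.6% of all genes were called. The summed CPM of the markers ranged from 8675 to 11875 with oxLDL for adipocyte markers and from 11038 to 13104 with oxLDL + pNaKtide, and from 3755 to 4358 and 3790 to 5455 for preadipocyte or fibroblast markers. With IS against Control, 3 of 8 adipocyte markers and 3 of 8 preadipocyte or fibroblast markers fell and none rose, where 7.94% of all genes were called. The part of these markers in the changes of the 7 genes was not tested.

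The genes whose levels followed each of the 7 most closely were found over the 30 libraries among 12441 genes, as the root mean square difference of centred log2 CPM. All genes of the pathway and marker lists were left out of this search, so they were not compared with those found. The nearest was Clic1 for H2-K1, at 0.0949, Maged2 for H2-D1, at 0.0603, Hspa8 for B2m, at 0.0872, and Slc29a1 for Tap1, at 0.106. It was C1qtnf6 for Tap2, at 0.129, Atf6b for Tapbp, at 0.0674, and Phkb for Erap1, at 0.0808. Within the 7, the closest pair was H2-D1 and B2m, at 0.110. These values are descriptions of libraries that share depth and composition.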

How the data were processed

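RNA of 3T3-L1 cells was sequenced in 30 libraries, 5 for each of 6 groups, with a stranded mRNA kit. The authors trimmed reads with Trimmomatic 0.38, aligned them to GRCm38 with HISAT2 2.1.0 (versions from the submitters' processing notes) and counted reads per gene. The deposited count values are not normalized, and the deposited FPKM values are per kilobase and scaled to depth. Of a further table, the authors' normalized counts were not used. No source used here gives the annotation release or whether the counting used strand.

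Symbols were matched for 54079 of 54232 gene IDs with GENCODE M21. Genes with more than 14 counts over all libraries were scaled by TMM and fitted in 1 model of 6 groups with edgeR 4.0.16 in R 4.3.3, using the robust quasi-likelihood test and Benjamini-Hochberg adjustment over 20139 genes with a threshold of 0.1. Alternatives used DESeq2 1.42.0, limma 3.58.1 on log2(FPKM + 1) of the deposited table, other scalings and filters, the replicate block, trends over GC content and length fitted with mgcv 1.9.3, and libraries left out. On simulated data of 19872 genes for oxLDL against Control, edgeR called 95 of 100 genes changed by 1 and 47 of 100 changed by 0.5 on the log2 scale, and 18 of the unchanged genes. The simulation drew each gene on its own and changed only genes above a minimum mean count. It held no first principal component or GC slope shared by genes, so these figures do not measure the error in the real libraries. Counts differed by a chi-square test in 60 of 60 pairs of libraries within groups, so none were merged, but IS + pNaKtide replicates 3 and 4, pNaKtide 1 and 2 and pNaKtide 4 and 5 lay near counting noise, at 1.30, 1.36 and 1.40 per degree of freedom against group medians of 8.22 to 20.7. The next lowest pairs were Control 2 and 4 at 1.82, IS 1 and 2 at 2.01 and oxLDL 2 and 5 at 2.30. A fit without oxLDL replicate 2 or 5 alone kept the other of that pair. Beside the 7 genes in every comparison, genes were named from 8 pathway lists and 4 marker lists, with examples among those called; 1 gene named by this rule is not reported here. The members and lists were chosen with earlier results of these data known.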

Additional observations from a re-analysis of the deposited data

Results flagged for a closer look

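In 3 of 42 sets of 5 libraries (7 genes in 6 groups), 1 library lay far from the other 4, where chance gives about 1 in 20, or 2.1 of 42. The measure is the gap to the nearest library divided by the range of the group, with a critical value of 0.71. H2-D1 in oxLDL + pNaKtide replicate 4, which scored 67.5 on the first principal component against 14.5 to 33.2 in the rest of its group, stood at 613.5 CPM, with a ratio of 0.799. B2m in IS replicate 4, which also stood apart on the first principal component, was at 937.5 CPM, with a ratio of 0.723. Tap2 in oxLDL replicate 4 was at 24.3 CPM, with a ratio of 0.900. Each was the highest library of its group, and the causes were not tested.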

How the results depend on the processing

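Of the 7 genes, the count called for oxLDL against Control was 3, and it was 1 with library size alone, 5 with both libraries that stand apart left out, and 0 to 5 with single libraries left out (0 without oxLDL replicate 2 or 5, and 5 without Control replicate 1). It was 2 with the trend taken out, B2m and Erap1, with none of H2-D1, Tap1 and Tapbp, and 2 with at least 1 count over all libraries, without Tapbp. B2m was called as well by limma (adjusted p = 0.0988), and Erap1 with more than 14 counts in every library (edgeR adjusted p = 0.0870). For IS against Control it was 0, then 5 without both libraries and 0 to 4 with single libraries left out. For oxLDL + pNaKtide against oxLDL it was 3, then 2 with library size alone and 2 to 3 with single libraries left out. It stayed 3 with the trend taken out, but with H2-K1 in place of Tapbp and Erap1 reversed. For oxLDL + pNaKtide against Control it was 0, then 2 with library size alone, 1 with the replicate block and 1 with the GC content and length trend taken out. For IS + pNaKtide against Control it was 0, then 3 without both libraries and 0 to 3 with single libraries left out. The interaction of oxLDL and pNaKtide gave 0 of 7, then 1 with DESeq2, RLE size factors, library size alone or limma, 2 with more than 14 counts in every library or the replicate block, 4 without both libraries and 0 to 2 with single libraries left out. Over all 6 groups it was 2, then 5 without both libraries and 2 to 5 with single libraries left out (5 without IS replicate 4).

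Among named genes called with or without it, signs reversed under the GC content and length trend for oxLDL against Control in Tapbp (0.037), Erap1 (-0.34), Canx (-0.11), Sec23a (-0.069) and Tpp2 (-0.35), and for oxLDL + pNaKtide against oxLDL in Erap1 (0.27), Mr1 (0.35), Psmb5 (-0.029), Tpp2 (0.40), Nfyb (0.10), Gbp6 (0.011) and Ifi27 (-0.0061). Of the 7 genes, values called in neither fit also changed sign, namely H2-K1 (0.03) and Tap2 (0.16) for oxLDL against Control and H2-D1 (-0.10), Tap1 (-0.00095) and Tap2 (-0.06) for oxLDL + pNaKtide against oxLDL, and others in the remaining comparisons. The causes were not tested.

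Of all genes tested, 7259 were called for oxLDL against Control, and 4144 with the trend taken out. IS against Control had 1599, then 0 to 9140 (0 in a fit of its groups alone, 9140 without both libraries), and 15 to 6952 with single libraries left out. The 1047 of oxLDL + pNaKtide against Control became 11 to 1968, the 72 of IS + pNaKtide against Control 30 to 6517, the 4951 of the interaction 2432 to 8049, the 1 of pNaKtide against Control 0 to 33 and the 0 of IS + pNaKtide against IS 0 to 11. With single libraries left out, the 1047 became 505 to 1300 and the 72 became 2 to 5378. The replicate block gave 3423 for IS against Control and 1338 for IS + pNaKtide against Control. Same-numbered libraries deviated together in only 18 of 35 pairs (correlation over 0.1), so the numbers were not taken to pair samples.

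At this depth Tap1, Tap2 and Erap1 rested on 118 to 542 counts per library.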
